A study of Arabidopsis thaliana with 12 samples.

Results

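ILA (ILITHYIA, locus AT1G64790) is described here through the 1 probe of the array whose only listed gene is ILA, out of 3439 probes, of which 692 have a single listed gene. No other probe lists ILA together with further genes. The probe was chosen because of its difference between the ages, so its levels, ranks and changes are given as a description, with no test.

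The series compares plants of 4 weeks, 6 samples, with plants of 2 weeks, 6 samples, all wild type of the Columbia 0 ecotype of Arabidopsis thaliana. Total RNA was hybridised to an expression array, and no mutant, transgene or treatment is labelled in either age. The labels number the samples from 1 to 6 in each age. They give neither the organ nor the growth conditions, and they do not say whether samples are separate plants, so the spread between them may be technical.

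ILA is the plant counterpart of GCN1, a very long protein built largely of HEAT repeats that binds ribosomes. In yeast, GCN1 works with the kinase GCN2, which phosphorylates the initiation factor eIF2alpha when amino acids are short and so lowers general translation. In Arabidopsis, ILA is needed for the same phosphorylation by GCN2. Plants that lack ILA have been described with pale leaves and disturbed chloroplasts, and with weaker defence against bacteria, which is why the gene is known both as a translation factor and as one needed for plastid development.

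ILA had a deposited intensity of 0.373, 0.376, 0.202, 0.256, 0.481 and 0.475 in 4-week samples 1 to 6, against 0.996, 1.14, 0.985, 0.824, 0.994 and 1.05 in 2-week samples 1 to 6. Deposited intensities are linear and run from 0 to 100 on every array. The ages did not overlap, since the brightest 4-week sample, number 5, lay below the dimmest 2-week sample, number 4. The mean was 0.36 ± 0.113 at 4 weeks and 0.998 ± 0.104 at 2 weeks (SD, n = 6 each). That is a 2.77-fold lower mean at 4 weeks in the values as deposited. The highest value was 100 on every array, so the deposited values may already be scaled array by array. In whole-plant or organ RNA, fewer cells that express the gene and less of its RNA per cell cannot be told apart.

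The arrays themselves differed in level. The median over all probes was between 0.39 and 0.445 on the 4-week arrays and between 0.0946 and 0.116 on the 2-week arrays, and between 421 and 471 probes stood at 0 on the 4-week arrays against 557 to 694 on the 2-week arrays. ILA was thus dimmer at 4 weeks on arrays whose typical probe was brighter. It stood at 0.519 to 1.22 times the array median at 4 weeks (mean 0.872 ± 0.276) and at 7.12 to 11.5 times the array median at 2 weeks (mean 9.35 ± 1.53, SD, n = 6 each). None of its 12 values was at 0 or at the top of the scale. The part of the array level in the size of the ILA difference was not tested apart from the scalings given below.

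**Figure D1:**
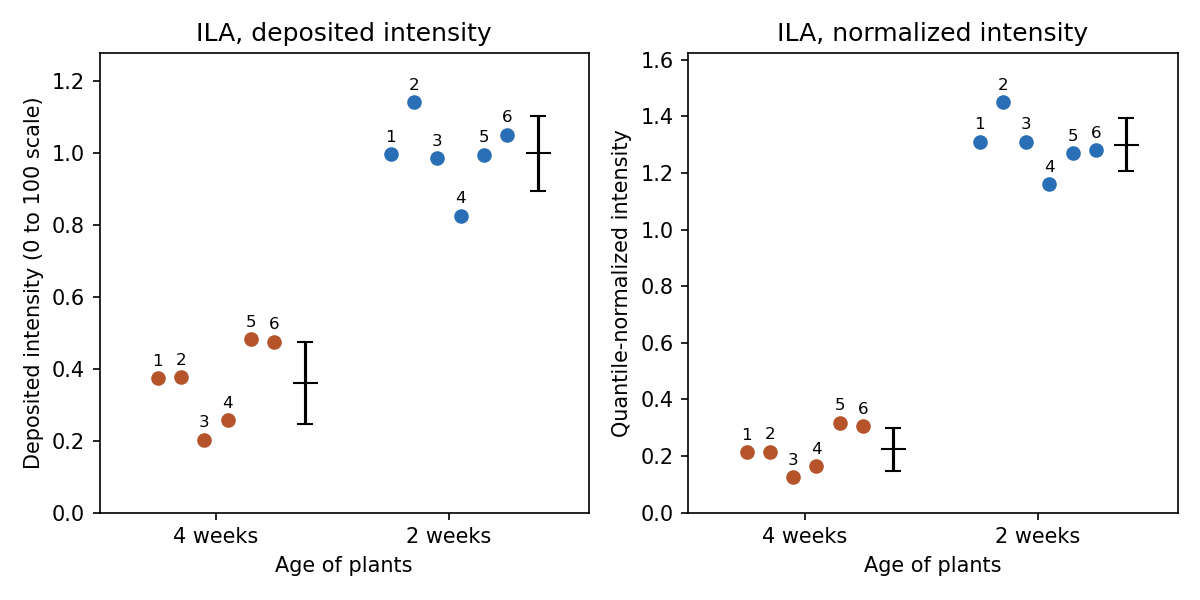
Intensity of the ILA probe in each of the 12 samples, as deposited (left) and after quantile normalization (right), with 4 weeks to the left of 2 weeks. Points carry the replicate number and bars show the mean ± SD of 6 samples. All 4-week samples lie below all 2-week samples on both scales, and 4-week samples 3 and 4 are the lowest.

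For the comparison of levels the arrays were quantile normalized, which gives every array the same distribution of values. Normalized intensity of ILA was then 0.213, 0.215, 0.125, 0.163, 0.318 and 0.305 in 4-week samples 1 to 6, against 1.31, 1.45, 1.31, 1.16, 1.27 and 1.28 in 2-week samples 1 to 6. The mean was 0.223 ± 0.0762 at 4 weeks and 1.3 ± 0.094 at 2 weeks (SD, n = 6 each). On the log2 scale the difference, 4 weeks minus 2 weeks, was -2.61 (SE 0.21), which is 6.1-fold lower at 4 weeks. It was the 19th most negative of 593 named genes and the 143rd of all 2961 probes and genes tested. For reading such a place, 31.1% of everything tested was called lower at 4 weeks and 33.6% higher in limma at an adjusted p below 0.05. The median log2 difference over all tested probes was 0.1, and ILA lay at -2.71 relative to it.

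The size of the difference depended on the scaling and its direction did not. It was -1.53 (SE 0.21) in the deposited values without normalization, where the median over all probes was 1.82, and -3.23 (SE 0.21) with each array centred on its median. Relative to the median of all tested probes, ILA lay at -3.36 in the deposited values and at -3.38 after median centring.

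The labels give the 2 ages the same numbers, and ILA was lower at 4 weeks for each of the 6 numbers. That direction follows from the lack of overlap between the ages, so only the sizes add to it. In normalized log2 intensity the difference was -2.62, -2.76, -3.39, -2.83, -2 and -2.07 for numbers 1 to 6. In deposited log2 intensity it was -1.42, -1.6, -2.28, -1.69, -1.05 and -1.15. Number 3 showed the largest difference and number 5 the smallest on both scales.

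The rank of ILA among all probes of an array does not depend on any factor that scales the array. Where 0 is the dimmest and 100 the brightest probe, ILA had a percentile rank of 43.1, 43.3, 29.3, 35.3, 57.3 and 55.9 in 4-week samples 1 to 6, against 91.9, 92.9, 91.9, 90.7, 91.7 and 91.7 in 2-week samples 1 to 6. Between 1467 and 2431 probes were brighter than ILA on the 4-week arrays, and between 245 and 321 on the 2-week arrays. The probe was thus near the top of the array in young plants and close to its middle in older ones. Brightness depends on the probe as well as on the transcript, so the rank is read between the ages and not as an order of transcripts. The mean rank was 44 ± 11.1 at 4 weeks and 91.8 ± 0.707 at 2 weeks (SD, n = 6 each), a difference of -47.7 percentile points. A larger drop in mean rank was found for 89 probes, 2.59% of the array.

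**Figure D2:**
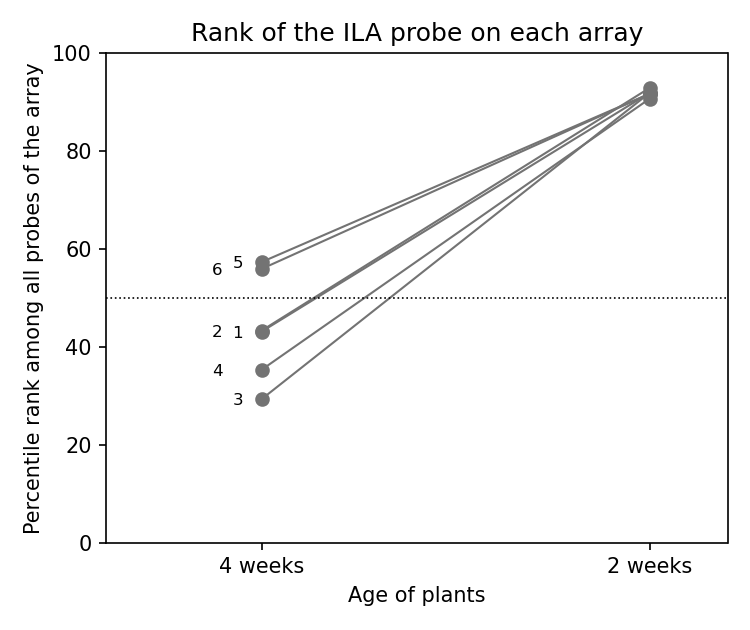
Percentile rank of the ILA probe among all 3439 probes of each array, at 4 weeks (left) and 2 weeks (right). Lines join samples of the same replicate number and the dotted line marks the middle of the array. The 2-week ranks lie between 90.7 and 92.9, and the 4-week ranks spread from 29.3 to 57.3.

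Many probes as bright as ILA in young plants were also dimmer in older plants, some of them by more. Of the 320 other probes within 5 percentile points of ILA at 2 weeks, the median rank was 79.8 at 4 weeks and 92 at 2 weeks, and the middle 50% lay between 57.3 and 93.3 at 4 weeks. Of these 320 probes, 37 stood below ILA at 4 weeks, and 42 had a more negative log2 difference. Their median log2 difference was -1.14, against 0.1 over all tested probes, and 63.7% of them were called lower in limma, against 31.1% over all tested. Probes bright at 2 weeks were selected by that level, so a lower mean at 4 weeks follows at least in part from the selection. ILA was chosen for its own difference between the ages, so its place among these probes is description only.

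**Figure D3:**
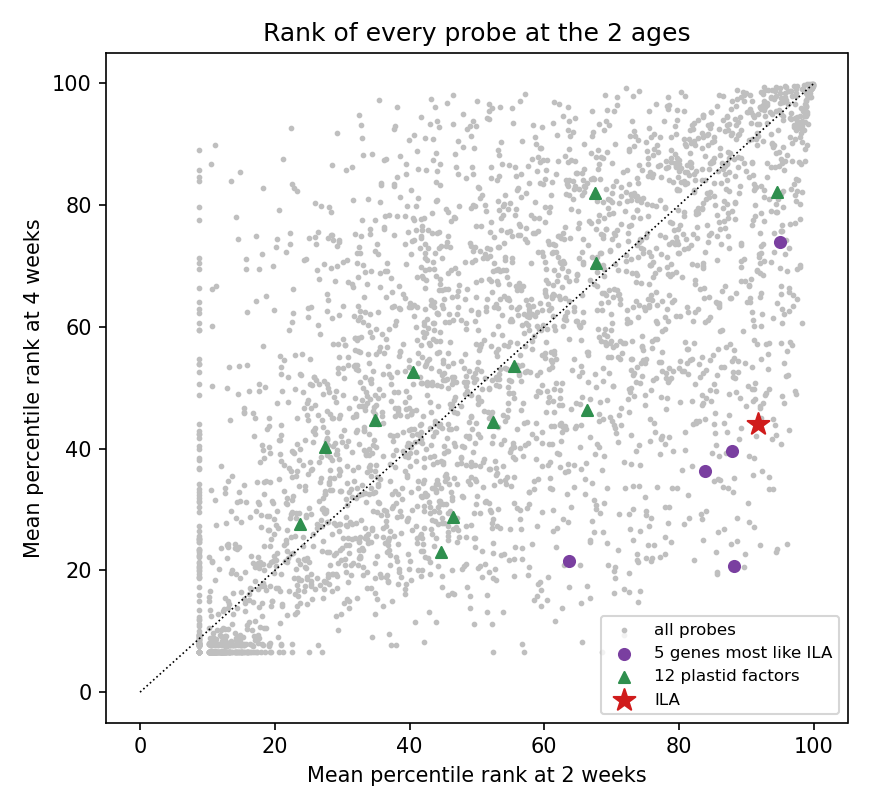
Mean percentile rank of every probe at 4 weeks (vertical axis) against 2 weeks (horizontal axis), with ILA, the 5 named genes whose pattern over the samples is most like it, and 12 plastid factors. Probes on the dotted line kept their rank. ILA lies far below the line, at 44 against 91.8, and most plastid factors lie nearer to it.

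The named genes whose probes were next to that of ILA in mean log2 brightness at 2 weeks had smaller differences. AT1G73430 and AT4G17650, the next above it, had normalized intensities of 1.97 ± 0.327 and 2.43 ± 0.241 at 4 weeks and of 1.31 ± 0.204 and 1.32 ± 0.069 at 2 weeks (SD, n = 6 each). Their log2 differences were 0.59 (SE 0.14) and 0.87 (SE 0.1), but -0.62 and -0.36 with median centring. AT1G12800 and AT5G14590, the next below it in mean log2 though not in the mean of the linear values, had 0.759 ± 0.158 and 0.76 ± 0.188 at 4 weeks and 1.37 ± 0.528 and 1.3 ± 0.308 at 2 weeks. Their differences were -0.79 (SE 0.24) and -0.78 (SE 0.21), and in the deposited values 0.09 and 0.11. Their distance from the difference of ILA was not tested.

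The genes next to ILA in size of change included 1 gene of carbon fixation. PRK, the phosphoribulokinase of the Calvin cycle, changed by -2.54 (SE 0.1) with a normalized intensity of 0.701 ± 0.0632 at 4 weeks and 4.08 ± 0.367 at 2 weeks. AT1G04420, at -2.55 (SE 0.2), had 0.0661 ± 0.0223 at 4 weeks and 0.374 ± 0.0371 at 2 weeks. On the other side of ILA stood AT1G33250, at -2.62 (SE 0.15), and AT2G04700, at -2.83 (SE 0.44). These 4 were picked by their change, which is therefore no result, and the SEs leave their order around ILA unsettled.

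Relative to its level, ILA varied little between young samples and more between older ones. The SD of its normalized log2 intensity was 0.52 at 4 weeks and 0.1 at 2 weeks (n = 6 each), against medians of 0.31 and 0.35 over all tested probes. At 4 weeks 76.3% of the tested probes had a smaller SD than ILA, and at 2 weeks 7.16% did. In the deposited values its coefficient of variation was 31.4% at 4 weeks and 10.4% at 2 weeks. On linear scales the contrast was absent. There its SD was 0.113 at 4 weeks and 0.104 at 2 weeks as deposited, and 0.0762 and 0.094 after normalization. The probes it was set against were not matched to it in brightness, and the part of its level in these spreads was not tested.

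The spread at 4 weeks followed adjacent sample numbers. Mean normalized log2 intensity was -2.22 for samples 1 and 2, -2.81 for samples 3 and 4, and -1.68 for samples 5 and 6, with gaps inside the pairs of 0.01, 0.39 and 0.06. The pairs did not overlap, and samples 3 and 4 were lowest and samples 5 and 6 highest. At 2 weeks the pair means were 0.46, 0.3 and 0.35, with gaps inside the pairs of 0.15, 0.18 and 0.01. The array median was 0.44, 0.445, 0.39, 0.397, 0.395 and 0.408 for 4-week samples 1 to 6. The number of probes at 0 was 468, 471, 466, 460, 438 and 421 for the same samples, lowest in samples 5 and 6, where ILA was highest. The part of these array differences in the spread of ILA was not tested. With adjacent numbers averaged, 3 against 3, the log2 difference was -2.61 (SE 0.3), and without samples 3 and 4 of both ages it was -2.36 (SE 0.17).

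Likeness to ILA was measured as Pearson's r of normalized log2 intensity over the 12 samples, for 453 named genes that lay above the floor on all arrays. The 12 points fall into the 2 ages and share arrays, so a high r mostly states a similar step between the ages: 52 genes had r above 0.9 and 60 had r below -0.9. The 5 highest were AT1G51080 at 0.996, AT4G24910 at 0.989, AT4G25290 at 0.986, AT3G04210 at 0.983 and AT3G15900 at 0.982. Their log2 differences ran from -4.15 to -1.89.

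AT1G51080, the gene most like ILA, had a normalized intensity of 0.0422, 0.0461, 0.0244, 0.0393, 0.104 and 0.123 in 4-week samples 1 to 6, against 1.02, 1.06, 0.821, 0.87, 0.962 and 1.02 in 2-week samples 1 to 6. Its samples did not overlap between the ages, and its log2 difference was -4.15 (SE 0.35), or -3.75 with the floor under low values at the 5th percentile. As with ILA, 4-week sample 3 was the lowest and 4-week samples 5 and 6 were the highest. Its values in 4-week samples 1 to 4 lay below that 5th percentile, 0.056, so the order among them rests on low values. Its r with ILA uses the same low values. The gene was picked by that r, so its likeness to ILA is no result.

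The lowest r belonged to AT3G04650 at -0.992, AT4G22830 at -0.985, AT5G40030 at -0.981, AT5G41960 at -0.98 and LAS at -0.979. LAS (LATERAL SUPPRESSOR) is a GRAS-family regulator of axillary meristems, the buds in leaf axils. Its normalized intensity was 1.98 ± 0.367 at 4 weeks and 0.247 ± 0.0351 at 2 weeks (SD, n = 6 each). AT4G22830 had 45.8 ± 7.14 at 4 weeks and 25.5 ± 1.93 at 2 weeks, a log2 difference of 0.83 that turned to -1.54 with median centring.

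With the step between the ages taken out, other genes came close to ILA. For deviations from the age means over the 12 samples, the highest r were 0.943 for AT1G51080, 0.931 for AT1G25500 and 0.929 for IAA31, with a median of -0.08 over the 453 genes. IAA31 is an Aux/IAA protein, a family of repressors of auxin-responsive genes. It had a normalized intensity of 1.24, 1.26, 0.954, 1.02, 1.45 and 1.38 in 4-week samples 1 to 6, against 1.3, 1.29, 1.1, 1.07, 1.13 and 1.15 in 2-week samples 1 to 6. Like ILA, it was lowest in samples 3 and 4 and highest in samples 5 and 6 at 4 weeks. Its r with ILA was 0.981 within 4 weeks and 0.752 within 2 weeks, each over 6 samples. IAA31 was picked by these same deviations, so the shared order and both r restate the choice. Its mean was 1.22 ± 0.195 at 4 weeks and 1.18 ± 0.097 at 2 weeks, a log2 difference of 0.04 (SE 0.12). On the quantile-normalized scale IAA31 thus had no step like that of ILA, but under median centring its difference was -0.88. The deviations rest on the same pairs of adjacent numbers, so the 12 points are not independent.

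**Figure D4:**
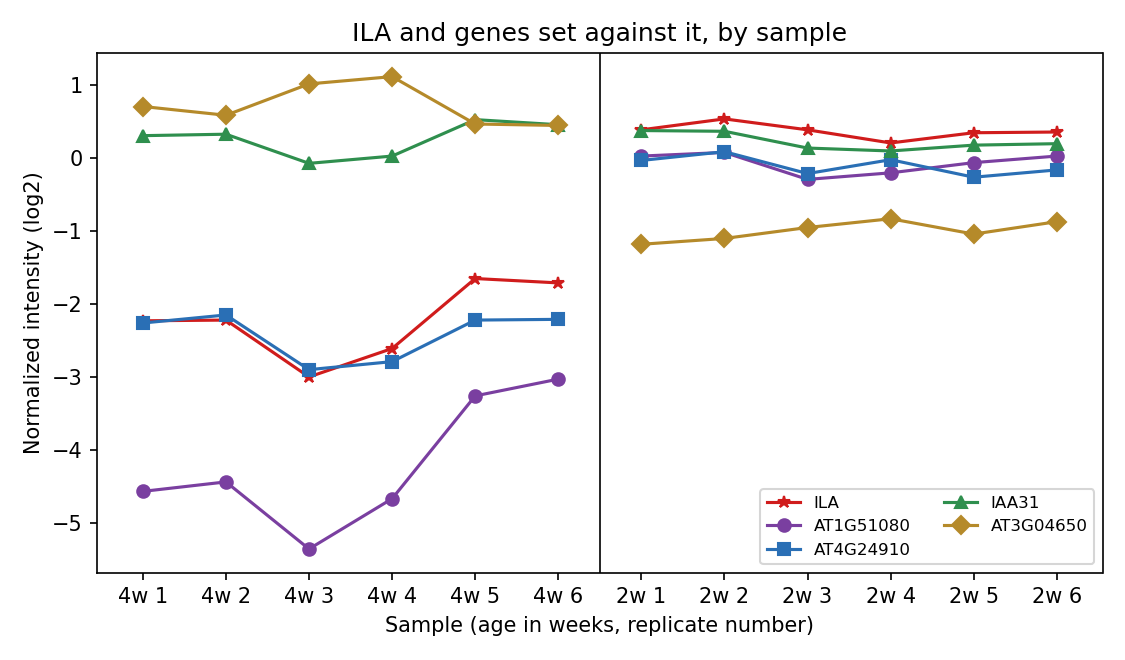
Normalized log2 intensity in each sample, 4 weeks (4w) left of the line and 2 weeks (2w) right of it, for ILA, AT1G51080 and AT4G24910 (among the highest r over 12 samples), IAA31 (high r of deviations only) and AT3G04650 (lowest r). ILA and AT1G51080 share the step between the ages and the low 4-week samples 3 and 4, while on this scale IAA31 shares the latter alone. The values of AT1G51080 in 4-week samples 1 to 4 lie below the 5th percentile of positive values.

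The direct partners of ILA could not be followed on this array. A set of 8 lists of translation and plastid genes, 124 loci in all, covered GCN2, the eIF2 and eIF2B subunits, the ABCF proteins, other cytosolic initiation, elongation and release factors, TOR signalling, HEAT-repeat proteins, plastid translation factors and plastid import and development. ILA was the 1 locus among them with a single-gene probe. A further 4 probes list such a locus together with other genes and were not named. None of 21 markers of leaf, root, flower, seed, flowering phase and senescence had a single-gene probe, so the tissue behind the samples was not checked.

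Some nuclear genes for plastid gene expression, import, folding and assembly were set beside ILA, and the counts below depend on that choice. They are 12 genes with a single-gene probe, picked by their known roles with earlier results of these data known, and 64.6% of all probes and genes tested were called in either direction. Of the 12, 2 fell, 3 rose and 7 did not pass in limma at an adjusted p below 0.05. Of everything tested, 31.1% was called lower and 33.6% higher. Their median log2 difference was 0.03, against 0.1 over all tested probes. Under any scaling, 0 of the 12 had a more negative difference than ILA. ILA was chosen for its change and stood 143rd most negative of all 2961 tested after quantile normalization, so that count is no result. In the deposited values 0 were called lower and 10 higher, where 327 probes over everything tested were called lower and 2245 higher. With median centring 3 were called lower and 4 higher, where 922 over everything tested were lower and 978 higher. With the floor at the 5th percentile, and likewise with trend and robust eBayes, 3 were called lower and 3 higher. With replicate number as a block it was 3 lower and 4 higher. Over everything tested, that floor gave 932 lower and 994 higher, trend and robust eBayes 915 and 1001, and the block 987 and 1041. Without samples 3 and 4 of both ages, and likewise with adjacent numbers averaged, 1 was called lower and 2 higher. Over everything tested, the former gave 844 lower and 883 higher, and the latter 756 and 751. These 2 settings, the block, and trend and robust eBayes kept the 2961 tested. For the deposited values, median centring and the 5th percentile floor the filter was redone, so their counts stand without a share.

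Among factors of plastid RNA and translation, CRR21, a pentatricopeptide repeat protein that edits a plastid transcript, rose by 0.73 (SE 0.16, limma adjusted p = 0.00128). ATAB2, an activator of translation of plastid photosystem transcripts, rose by 0.47 (SE 0.17, limma adjusted p = 0.0284), with 0.226 ± 0.0568 at 4 weeks and 0.161 ± 0.0235 at 2 weeks (SD, n = 6 each). The call for ATAB2 was lost with adjacent numbers averaged (limma adjusted p = 0.056), without samples 3 and 4 of both ages, and without 4-week sample 2 (0.0577), 4-week sample 5 (0.0608), 2-week sample 1 (0.0601) or 2-week sample 6 (0.0597). OTP70, needed for splicing of a plastid transcript, had a log2 difference of 0.12 (SE 0.11). PAC (PALE CRESS), needed for plastid ribosome assembly and, like ILA, for green leaves, had -0.79 (SE 0.77, limma adjusted p = 0.385). PAC was at the floor in 1 of the 2-week samples, and without 2-week sample 6 it passed, at -1.5 (limma adjusted p = 0.0115).

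Among import and folding factors, DAL1 (SP1), a ubiquitin ligase that adjusts the plastid import machinery, fell by 0.92 (SE 0.32, limma adjusted p = 0.0242). DAL1 was called higher in the deposited values, at 0.77, and was not called with adjacent numbers averaged (limma adjusted p = 0.124), without samples 3 and 4 of both ages, or without 4-week sample 6, at -0.8. SECE1, a subunit of the thylakoid Sec translocase, stood at -0.38 (SE 0.47), and the chaperonin subunits Cpn60beta3 and Cpn60beta4 at -0.07 (SE 0.26) and 0.6 (SE 0.32). With replicate number as a block Cpn60beta4 passed as a rise (limma adjusted p = 0.0306), as it did with median centring, at 0.99.

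Among assembly factors, LPA19, which helps to mature a photosystem II core protein, fell by 1.46 (SE 0.23, limma adjusted p = 0.000126), to 0.0814 ± 0.0207 at 4 weeks, against 0.227 ± 0.0721 at 2 weeks (SD, n = 6 each). In the deposited values LPA19 was called higher, at 0.74. CCB3, of cytochrome b6f assembly, rose by 0.89 (SE 0.24, limma adjusted p = 0.00681). PSB27, a photosystem II assembly protein, had -1.17 (SE 0.5, limma adjusted p = 0.0585) and passed as a fall with replicate number as a block (limma adjusted p = 0.00151). It also passed without 4-week sample 1, at -1.45, without 4-week sample 2, at -1.44, without 2-week sample 3, at -1.33, and with median centring, at -2.32. A floor at the 5th percentile gave PSB27 a limma adjusted p of 0.0487, trend and robust eBayes gave 0.047, and leaving out the dimmest 25% of probes gave 0.0497. FZL, which shapes thylakoids, stood at 0.21 (SE 0.7) and was at the floor in 1 of the 2-week samples.

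**Figure D5:**
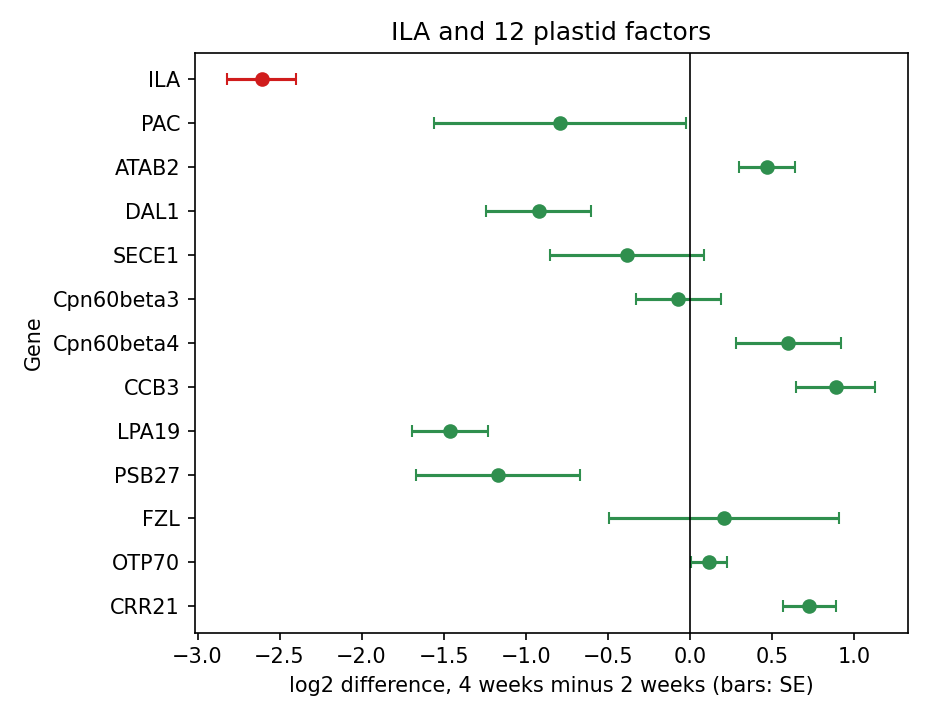
Log2 difference in normalized intensity, 4 weeks minus 2 weeks, for ILA and 12 plastid factors, with SE bars from limma over 6 samples of each age. ILA lies at -2.61, and the 12 factors lie between -1.46 and 0.89.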

How the data were processed

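The authors deposited 1 intensity per probe and sample, on a linear scale between 0 and 100. Their image reading, background correction and scaling are not given in the sources. With 12 arrays in all, their number limits precision. Log2 medians of the positive values lay up to 1.9 apart between arrays. Since this exceeded a limit of 0.2, quantile normalization was applied. A floor was set at the 1st percentile of positive values, 0.0152, before taking log2. After 1 pair of probes for a gene was averaged, 2961 probes or genes that exceeded the floor on at least 6 of 12 arrays were tested. Limma 3.58.1 in R 4.3.3 (lmFit, eBayes) compared 4 with 2 weeks, two-sided, with Benjamini-Hochberg adjustment at 0.05. The script was tested on simulated data.

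A probe was named where the array's annotation lists 1 gene for it, which holds for 692 probes. Of these, 690 matched RefSeq TAIR10.1, which served for names alone. No coordinates are printed, because no source states the build behind the array. The ILA probe, the gene lists and the alternatives were chosen with earlier results of these data known. Besides ILA, the genes named are the 5 with the highest and 5 with the lowest r with ILA, the 3 with the highest r of deviations, the nearest 2 on each side in 2-week level and in change, and the plastid factors.

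Samples of the same number in the 2 ages deviated together from their age means, at r from 0.16 to 0.44 across genes. Set against the samples of the other age alone, 12 of 12 samples matched their own number best. Matches within an age were not part of that count. By the rule used here the numbers therefore pair the samples, although no label explains them. Adjacent numbers of an age were related too, at r between 0.41 and 0.5 among 4-week samples and between 0.01 and 0.31 among 2-week samples.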

Additional observations from a re-analysis of the deposited data

Results flagged for a closer look

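For ILA and the genes named by likeness, level or change, 42 groups of 6 values were examined with Dixon's test. It flags about 5% of groups by chance. The 12 plastid factors were not among these groups. The test singled out 1 of the 42 groups. PRK was lowest in 4-week sample 3, at a normalized log2 intensity of -0.78, with the next sample at -0.54. Neither age of ILA had such a sample.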

How the results depend on the processing

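ILA was lower at 4 weeks under every scaling, floor, filter and left-out sample tried. Its log2 difference moved by more than 1 SD between samples, 0.37 pooled over the ages, in the deposited values, to -1.53, and with median centring, to -3.23. Relative to the median of all tested probes these were -3.36 and -3.38. Leaving out 1 sample at a time gave log2 differences from -2.73 to -2.46, rank differences from -50.4 to -44.8 percentile points, and 1837 to 1908 calls over all probes. With replicate number as a block, the fit called 2028 probes, against 1914 without the block, and gave ILA -2.61 (SE 0.2). The block changed no other call among the genes named than those of PSB27 and Cpn60beta4. Without normalization 2245 probes were called higher and 327 lower, against 994 and 920.

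Directions reversed with scaling for 10 named genes. In the deposited values AT1G12800 stood at 0.09, AT5G14590 at 0.11, DAL1 at 0.77, SECE1 at 1.57, Cpn60beta3 at 1.77 and LPA19 at 0.74. With median centring AT1G73430 stood at -0.62, AT4G17650 at -0.36, AT4G22830 at -1.54 and IAA31 at -0.88. A count over the translation and plastid lists fixed at the outset could not be made under any setting, because ILA was their 1 locus with a single-gene probe. The cause of these shifts was not tested.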
